A study of Mus musculus with 8 samples.

Results

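Pericyte marker genes drawn from single-cell work were examined in bulk RNAseq libraries of pericytes and smooth muscle cells (SMCs) sorted from mouse skeletal muscle. The genes were Kcnj8, Abcc9, Atp13a5, Rgs5, Higd1b, Ndufa4l2, Cox4i2 and Vtn, and each was taken by its name. Each matched 1 row, giving 8 of the 37979 genes in the deposited data.

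The 8 libraries divide evenly, 4 to a cell type, and carry the numbers 1 to 4 in each. Both groups were isolated from the hindlimb of Ai14+/-;SM22α-Cre+ mice of both sexes aged 3 to 4 months, with no treatment, so the groups shared genotype and differed in the sort gate. Ai14 is a reporter allele that makes the red protein tdTomato once Cre has acted, and Cre was driven here by the SM22α (Tagln) promoter. Pericytes were sorted as DAPIlow, PDGFRβ+, tdTomato- cells and SMCs as DAPIlow, PDGFRβ+, tdTomato+ cells, both without CD31 or CD45 label. The pericyte group is therefore defined by a cell surface receptor and by the absence of the reporter. About 60000 cells from several pooled sorts made up a sample. The sources used here do not tie a replicate to particular animals, so p-values measure only the spread between these samples. In addition, fewer cells of a type and less RNA per cell cannot be told apart in bulk RNA.

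Pericytes wrap capillaries and share the vessel wall with SMCs, and the pair are together called mural cells. Kcnj8 encodes Kir6.1, the pore of a potassium channel that opens when cellular ATP is low, and Abcc9 encodes SUR2, its regulatory subunit. Rgs5 shortens G protein signalling downstream of vasoactive receptors. Ndufa4l2, Cox4i2 and Higd1b encode mitochondrial proteins with ties to the response to low oxygen. Vtn encodes vitronectin, an adhesive glycoprotein of plasma and matrix, and Atp13a5 encodes a transport ATPase of the P5 family. Brain pericytes are the cells in which most of these genes became known as markers.

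Because Kcnj8 and Abcc9 are neighbours that encode partner subunits, and Rgs5 and Vtn had the smallest q values among the marker genes with a promoter in the sequence table, the 250 bases before the start site of these genes are shown. The sequences are from RefSeq (GRCm38.p6), which held 5 of the 8 genes (also Atp13a5, and not Higd1b, Ndufa4l2 or Cox4i2). They lie at chr6:142571615-142571864 on the minus strand for Kcnj8, chr6:142702275-142702524 on the minus strand for Abcc9, chr1:169655251-169655500 on the plus strand for Rgs5 and chr11:78498870-78499119 on the plus strand for Vtn. Each is written 5′ to 3′ on the gene's own strand, with capitals for the letters TGGGAA, a core that RBPJ, the DNA-binding partner of Notch receptors, can bind.
Kcnj8: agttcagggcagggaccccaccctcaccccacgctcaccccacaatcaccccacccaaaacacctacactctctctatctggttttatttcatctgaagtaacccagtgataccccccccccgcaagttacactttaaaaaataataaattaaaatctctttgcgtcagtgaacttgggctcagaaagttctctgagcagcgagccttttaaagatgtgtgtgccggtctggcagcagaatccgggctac
Abcc9: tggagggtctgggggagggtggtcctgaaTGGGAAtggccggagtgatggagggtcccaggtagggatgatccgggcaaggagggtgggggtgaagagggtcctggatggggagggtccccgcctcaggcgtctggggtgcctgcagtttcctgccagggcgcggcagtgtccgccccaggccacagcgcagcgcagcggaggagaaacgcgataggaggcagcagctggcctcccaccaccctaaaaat
Rgs5: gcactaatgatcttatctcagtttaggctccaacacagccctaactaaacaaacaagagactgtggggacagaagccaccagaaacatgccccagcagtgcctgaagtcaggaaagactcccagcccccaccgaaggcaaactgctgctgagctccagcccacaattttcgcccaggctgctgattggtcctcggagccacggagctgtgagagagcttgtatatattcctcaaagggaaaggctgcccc
Vtn: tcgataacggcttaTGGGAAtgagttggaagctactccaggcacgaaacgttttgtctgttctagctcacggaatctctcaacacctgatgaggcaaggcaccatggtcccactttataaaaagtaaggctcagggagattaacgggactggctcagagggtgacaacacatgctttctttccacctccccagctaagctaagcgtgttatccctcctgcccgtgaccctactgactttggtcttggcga
TGGGAA was searched on both strands. It occurred in the Abcc9 window, from position -221 to -216 relative to the start, and in the Vtn window, from -236 to -231, and 21.6% of the 32851 promoter windows of this length held it. Neither ACGTG, the core of a hypoxia-inducible factor site, found in 16.6% of windows on either strand, nor the CArG box, the site of serum response factor, found in 1.47%, occurred in any of the 5 windows. These are letter matches in a short window and say nothing of binding. The GC content of the windows was 66.8% for Abcc9, 53.6% for Rgs5, 50.4% for Vtn, 49.2% for Kcnj8 and 44.8% for Atp13a5, against a median of 52.4% over all windows.

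Levels are given in FPKM, which scales the fragments of a gene to its transcript length and to the mapped reads of the library, and differences as SMC minus pericyte on the log2(FPKM + 1) scale, on which the change of a gene with low FPKM is understated. Tests used limma with Benjamini-Hochberg adjustment (q value) over 27414 genes above 0 FPKM in at least 1 library, and a gene passed at q below 0.05. Depth, estimated from the FPKM that 1 fragment is worth, was about 20200000 to 24600000 fragments a library. A total of 12713 to 13194 genes reached 1 FPKM in a library. The pericyte 2 library stood apart in its summed FPKM, 1190435, where the other 7 libraries had 656405 to 782014.

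The marker genes were higher in SMC libraries or not past the test, and none was higher in pericyte libraries. Rgs5, Ndufa4l2 and Vtn were higher in SMCs, which is 3 of 8 genes where 11.2% of all genes tested were higher in SMCs and 10.6% were higher in pericytes (21.8% in either direction). At an unadjusted p below 0.05 there were 5 genes, against 16.2% of all genes higher in SMCs, and again 0 were higher in pericytes. In 4 genes, the 3 named and Cox4i2, every SMC library lay above every pericyte library, a pattern that 12.5% of all genes showed and 12.1% showed in reverse. The groups overlapped in the other 4. The median difference of the 8 genes was 1.34, against -0.02 for all genes tested. When only genes of at least 1 FPKM in at least 4 libraries were tested, 5 passed, with Kcnj8 (q = 0.0358 in limma) and Cox4i2 (q = 0.0200) added, but 22.8% of the 13349 genes then tested were higher in SMCs as well.

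**Figure D1:**
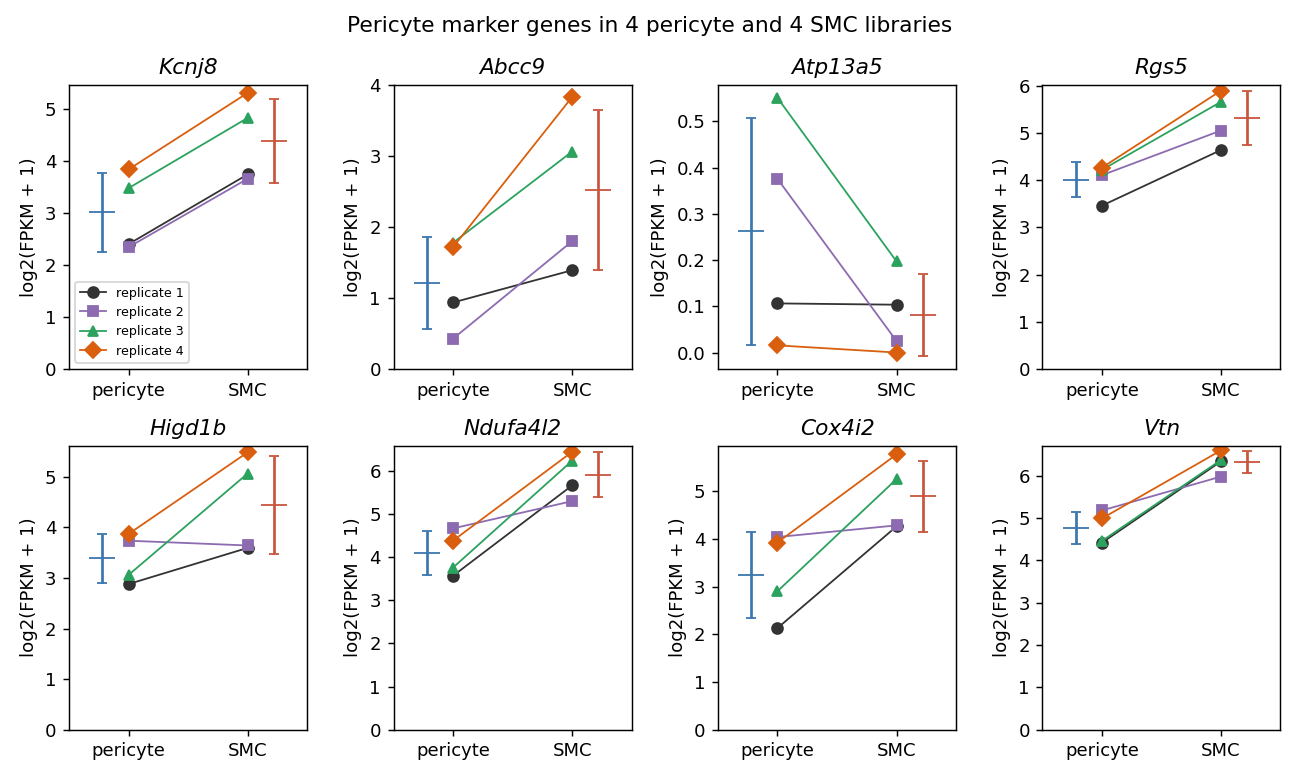
Level of each marker gene, as log2(FPKM + 1), in the pericyte and SMC libraries, with a line joining libraries of the same replicate number and a bar beside each group for the mean and SD (n = 4). In 7 panels SMC 4 is the highest library, and Atp13a5 stays below 0.6 in every library.

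Kcnj8 (ENSMUSG00000030247, chr6:142513459-142519876, minus strand, NCBI Build 37) had levels of 4.30, 4.09, 10.2 and 13.4 FPKM in pericyte libraries 1 to 4, and of 12.4, 11.7, 27.6 and 39.0 FPKM in SMC libraries 1 to 4. Replicates 3 and 4 were the high libraries of both groups, and pericyte 4 lay above SMC 1 and SMC 2, so the groups overlapped. The mean was 7.99 ± 4.57 FPKM in pericytes and 22.7 ± 13.1 FPKM in SMCs (SD, n = 4), a ratio of means of 2.84. The difference of 1.37 (SE 0.51, 95% interval 0.17 to 2.57) did not pass (limma q = 0.107, unadjusted p = 0.030). It passed with a covariate that set replicates 1 and 2 against 3 and 4 (q = 6.09e-04), with which 14.3% of all genes were higher in SMCs. No label gives this split, and it is also the split seen in the levels of Kcnj8, so the pass is no separate support. By same-numbered libraries, the differences were 1.34, 1.32, 1.35 and 1.47, with an SD of 0.07. This was the smallest spread over pairs among the 7 marker genes above 1 FPKM on average.

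Abcc9 (ENSMUSG00000030249, chr6:142536382-142650794, minus strand) is the upstream neighbour of Kcnj8 on the same strand, and 16505 bases separate the genes. Its levels were 0.915, 0.344, 2.43 and 2.29 FPKM in pericytes and 1.62, 2.48, 7.37 and 13.3 FPKM in SMCs. Replicates 3 and 4 were again the high libraries in each group, and SMC 1 lay within the pericyte range. The mean was 1.495 ± 1.03 FPKM in pericytes and 6.19 ± 5.36 FPKM in SMCs (SD, n = 4), and the difference of 1.31 (SE 0.59, 95% interval -0.09 to 2.70) did not pass (limma q = 0.185). It passed with the covariate for replicates 1 and 2 against 3 and 4 (q = 0.0110), to which the same limit applies. The pairs gave 0.45, 1.37, 1.29 and 2.12, a wider spread than for Kcnj8. In the pericyte libraries about 52.3 to 430 fragments stood behind the value of Abcc9, and 181 to 715 behind that of Kcnj8. These numbers take the longest transcript of each gene. Abcc9 has 5 transcripts and Kcnj8 has 1, so the number for Abcc9 is an upper estimate.

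A list of potassium channel genes gives the setting for this pair, and its counts and median include the pair. Of 17 genes for subunits of ATP-sensitive channels and for inward rectifiers, 3 were higher in SMCs (against 11.2% of all genes) and 0 were higher in pericytes. The median difference was 0.16, and ran from 0.08 without SMC 4 to 0.28 without pericyte 4, but was 0.77 with a pseudocount of 0.1. Kcnj13, which encodes Kir7.1, was at 3.11 to 3.88 FPKM in pericytes and 8.82 to 41.4 FPKM in SMCs (difference 2.19, limma q = 0.0148). Kcnj2, the gene of the inward rectifier Kir2.1, was at 0.871 to 1.49 and 2.16 to 8.14 FPKM (difference 1.22, q = 0.0260). Kcnj15 was at 0.0122 to 0.192 and 0.266 to 0.995 FPKM (difference 0.59, q = 0.0278). The count fell to 1 without any of pericyte 1, 3 or 4 or SMC 2 or 3. Kcnj11 and Abcc8, the paralogues of Kcnj8 and Abcc9 that form the channel of pancreatic beta cells, were lower in level, at 0 to 0.912 FPKM and 0.177 to 4.54 FPKM over the 8 libraries. Their differences were 0.16 (q = 0.736) and 0.86 (q = 0.239). Without SMC 4 these were -0.03 and 0.47, without pericyte 4 they were 0.35 and 0.97, and with a pseudocount of 0.1 they were 0.83 and 1.62. The remaining 10 genes, among them the G protein-gated rectifiers Kcnj3, Kcnj5, Kcnj6 and Kcnj9, stayed at or below 1.36 FPKM and did not pass, although Kcnj3 did so, as higher in pericytes, without pericyte 2 (-0.17, q = 0.0401).

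Rgs5 (ENSMUSG00000026678, chr1:171585632-171625944, plus strand) was measured at 10.01, 16.2, 17.6 and 18.3 FPKM in pericytes and at 23.9, 32.2, 49.7 and 58.7 FPKM in SMCs. All SMC libraries were above all pericyte libraries. The mean was 15.5 ± 3.78 FPKM in pericytes and 41.1 ± 15.9 FPKM in SMCs (SD, n = 4), and the difference was 1.30 (SE 0.31, 95% interval 0.56 to 2.04, limma q = 0.0240). Pairs gave 1.18, 0.95, 1.44 and 1.63. The call was lost without pericyte 1 (1.12, q = 0.0669), pericyte 3 (1.37, q = 0.0516), SMC 3 (1.18, q = 0.0695) or SMC 4 (1.11, q = 0.0555).

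Rgs5 belongs to the R4 group of small GTPase-activating proteins, and members of this family passed in both directions. Of 9 members tested, 4 were higher in SMCs and 3 in pericytes (against 11.2% and 10.6% of all genes). The median difference was 0.08, and ran from 0.01 without SMC 2 to 0.14 without pericyte 1, but was 0.50 with a pseudocount of 0.1, which also brought Rgs13 past the threshold as higher in pericytes (-1.38, q = 0.0454). Besides Rgs5, the members higher in SMCs were Rgs4 at 9.54 to 23.3 FPKM in pericytes and 38.7 to 97.0 FPKM in SMCs (difference 1.93, limma q = 0.00709), Rgs16 (1.68, q = 0.0147) and Rgs3 (1.43, q = 0.00695). Those higher in pericytes were Rgs1, a regulator well known from B and T lymphocytes, at 88.1 to 123 FPKM in pericytes and 14.3 to 23.5 FPKM in SMCs (difference -2.49, q = 8.92e-05), Rgs2 (-1.72, q = 0.00558) and Rgs18 (-1.22, q = 0.0492). Rgs18 overlapped between groups and lost its call without pericyte 1, 2 or 4, or SMC 1, 3 or 4, and also with TPM (q = 0.0731) or quantile normalization (q = 0.0609), which left 2 members higher in pericytes. Without pericyte 1 the number higher in SMCs was 2. Rgs13 (-0.33, q = 0.0967) and Rgs8 (0.08, q = 0.651) did not pass, and Rgs21 was listed at 0 in all 8 libraries. In pericytes Rgs2, at 128 to 221 FPKM, and Rgs1 lay far above Rgs5, whereas in SMCs the range of Rgs2, 33.4 to 67.1 FPKM, overlapped that of Rgs5 and Rgs1 lay below both.

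Among the mitochondrial genes, Ndufa4l2 (ENSMUSG00000040280, chr10:126951995-126954208, plus strand) is a target of hypoxia-inducible factor and a paralogue of Ndufa4, a subunit of cytochrome c oxidase. Its levels were 10.9, 24.5, 12.6 and 19.9 FPKM in pericytes and 49.8, 38.4, 74.6 and 86.1 FPKM in SMCs. The lowest SMC library was above the highest pericyte library. Means were 16.9 ± 6.36 and 62.2 ± 21.9 FPKM (SD, n = 4), and the difference of 1.82 was the largest of the 8 genes on the log2(FPKM + 1) scale (SE 0.34, 95% interval 1.02 to 2.61, limma q = 0.00815). By the ratio of mean FPKM, Abcc9 had the larger value, 4.14 against 3.67. Pairs gave 2.10, 0.63, 2.48 and 2.06, with the smallest difference in the pair of the pericyte 2 library. The gene shares 14 exonic bases with Shmt2 on the opposite strand.

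Cox4i2 (ENSMUSG00000009876, chr2:152579909-152590773, plus strand) encodes the less common isoform of subunit 4 of cytochrome c oxidase. It was at 3.38, 15.4, 6.47 and 14.2 FPKM in pericytes and at 18.2, 18.5, 37.1 and 53.6 FPKM in SMCs. The groups did not overlap, yet the pericyte libraries ranged over 4.57-fold. The difference of 1.64 (SE 0.54, 95% interval 0.39 to 2.90) did not pass over all genes tested (limma q = 0.0709, unadjusted p = 0.0174). Pairs gave 2.13, 0.24, 2.35 and 1.85, and the pair of the pericyte 2 library was again the smallest.

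Higd1b (ENSMUSG00000020928, chr11:102697163-102699354, plus strand) encodes a small inner membrane protein of the HIG1 family. It was at 6.36, 12.3, 7.35 and 13.6 FPKM in pericytes and at 11.1, 11.5, 32.5 and 43.9 FPKM in SMCs. SMC 1 and SMC 2 lay within the pericyte range and SMC 3 and SMC 4 above it. The difference of 1.06 (SE 0.50, 95% interval -0.11 to 2.23) did not pass (limma q = 0.20). Pairs gave 0.72, -0.09, 2.01 and 1.62. The pair 2 value was the only case, among 28 pairs of same-numbered libraries in the 7 genes above 1 FPKM on average, with the pericyte library higher.

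The ubiquitous paralogues of these 3 genes did not pass. Ndufa4 and Cox4i1 were far above Ndufa4l2 and Cox4i2 in level, whereas Higd1a was above Higd1b in 7 of 8 libraries and close to it in SMC 4. Ndufa4 was at 587 to 1697 FPKM in pericytes and 599 to 717 FPKM in SMCs (difference -0.32, limma q = 0.594), and Cox4i1 was at 946 to 2443 and 1010 to 1339 FPKM (-0.16, q = 0.785). The sign of both turned without pericyte 2 (0.03 and 0.16) and with quantile normalization (0.02 and 0.25), and that of Cox4i1 with TPM (0.08). Higd1a was at 47.2 to 125 and 42.4 to 62.5 FPKM (-0.36, q = 0.515), and Higd2a gave a difference of 0.15 (q = 0.763). Leaving out each library in turn, Higd1a ran from -0.53 to -0.06 and Higd2a from 0.05 to 0.43. The highest value of all 4 genes was in the pericyte 2 library. Of the 4 genes for NDUFA4 and COX4 isoforms, 1 (Ndufa4l2) was higher in SMCs (against 11.2% of all genes), and of the 3 HIG1 family genes none passed in either direction (against 11.2% and 10.6%), with 0 at an unadjusted p below 0.05.

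Genes that respond to low oxygen, the setting in which Ndufa4l2 and Cox4i2 are best known, gave calls in both directions. Of 20 such genes, 4 were higher in SMCs and 3 in pericytes (against 11.2% and 10.6% of all genes). The count higher in SMCs was 6 with quantile normalization (against 12.4% of all genes), with the replicate number as a block (11.6%) and with the covariate (14.3%). The median difference was 0.25 (0.06 without pericyte 1, 0.13 without pericyte 4, 0.16 without SMC 3 and 0.48 with TPM). Bnip3, which acts in removal of mitochondria, was at 18.9 to 29.9 FPKM in pericytes and 54.4 to 64.6 FPKM in SMCs (difference 1.40, limma q = 7.97e-04), and P4ha2, a collagen prolyl hydroxylase, had a difference of 2.37 (q = 0.00103). The glycolytic enzyme gene Eno1 (-0.93, q = 0.00360) and Pdk1, a kinase that holds pyruvate back from mitochondria (-1.73, q = 0.00680), were higher in pericytes.

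**Figure D2:**
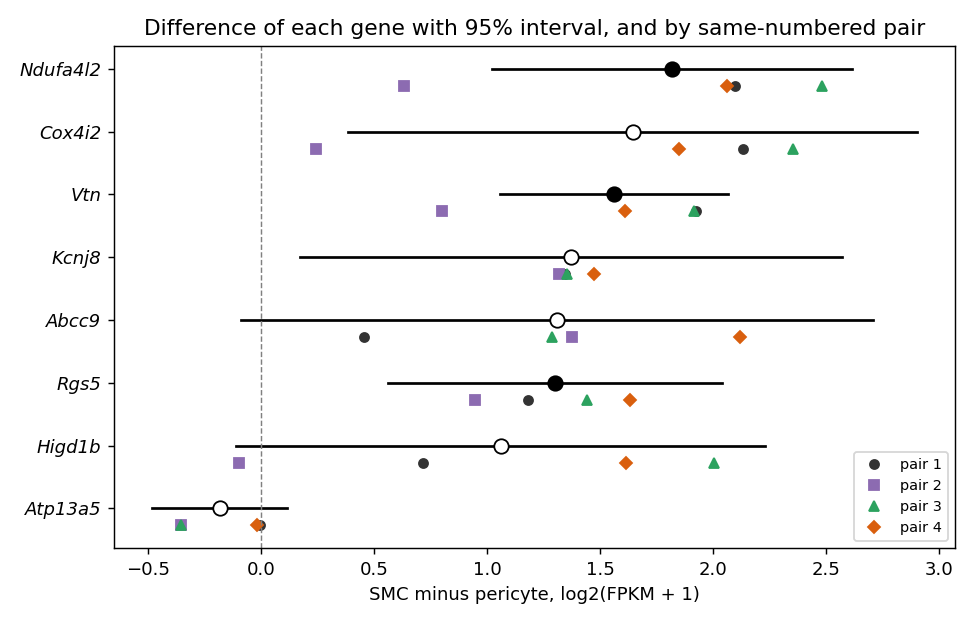
SMC minus pericyte on the log2(FPKM + 1) scale for each marker gene, as the estimate from limma (circle, filled where q is below 0.05) with its 95% interval (line), and the values of the same-numbered pairs (small symbols under each line). The 3 filled circles are Ndufa4l2, Vtn and Rgs5, and the pair values of Kcnj8 lie closest together among the genes above 1 FPKM on average.

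Vtn (ENSMUSG00000017344, chr11:78312593-78315826, plus strand) had the highest mean of the marker genes in both groups. It was at 20.4, 35.3, 21.0 and 30.9 FPKM in pericytes and at 80.1, 62.2, 82.0 and 96.2 FPKM in SMCs. All SMC libraries were above all pericyte libraries, and the spread was small within each group, 1.73-fold in pericytes and 1.55-fold in SMCs. Means were 26.9 ± 7.37 and 80.1 ± 13.9 FPKM (SD, n = 4), and the difference was 1.56 (SE 0.21, 95% interval 1.06 to 2.06, limma q = 0.00212). Pairs gave 1.92, 0.80, 1.91 and 1.61. Liver is the main source of plasma vitronectin. Of 5 hepatocyte marker genes tested none passed in either direction (against 11.2% and 10.6% of all genes), with 0 at an unadjusted p below 0.05. All 5 had a positive difference, and Alb was at or below 0.233 FPKM in every library. Without pericyte 2, Apoa1 passed as higher in SMCs (0.57, q = 0.0221). Their summed level was 1.10 to 10.7 FPKM in pericytes and 2.03 to 14.3 FPKM in SMCs, and replicate 1 had the highest sum of each group, mostly from Fgb.

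Vitronectin binds integrins that contain the αv chain, and the urokinase receptor. Of 10 genes for vitronectin and its partners, 5 were higher in SMCs and 0 in pericytes (against 11.2% and 10.6% of all genes), with 1 higher in pericytes at an unadjusted p below 0.05, and the median difference was 0.85. Besides Vtn these were Itgb1, at 82.3 to 188 FPKM in pericytes and 309 to 450 FPKM in SMCs (difference 1.60, limma q = 0.00908), Itgb5 (1.30, q = 0.0458), Itga2b, the platelet integrin chain (2.26, q = 0.00101), and Plau, which encodes urokinase (1.62, q = 0.00130). Itgb5 lost its call without any library other than pericyte 4. The receptor gene Plaur was at 325 to 612 FPKM in pericytes and 127 to 508 FPKM in SMCs and did not pass (-1.17, q = 0.123). Itgav (0.40, q = 0.597), Itgb3 (-0.98, q = 0.213), Itgb8 (-0.08, q = 0.874) and Itgb6 (-0.07, q = 0.842) did not pass either. Leaving out each library in turn, Itgav ran from 0.11 to 0.67, and Itgb8 (-0.23 to 0.12) and Itgb6 (-0.18 to 0.06) changed sign. Plaur passed as higher in pericytes without SMC 3 (-1.61, q = 0.00856) and with a filter that kept only genes of at least 1 FPKM in at least 4 libraries (q = 0.0460). Itgb3 passed without pericyte 2 (-1.38, q = 0.0411) and with a covariate that set replicates 1 and 2 against 3 and 4 (q = 0.0446), which took the call from Itgb5 (q = 0.0527).

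Atp13a5 (ENSMUSG00000048939, chr16:29231937-29378818, minus strand), a marker of brain pericytes, was near the floor in muscle. It was at 0.0764, 0.297, 0.465 and 0.0108 FPKM in pericytes and at 0.0744, 0.0173, 0.146 and 0 FPKM in SMCs. These values rest on about 1.21 to 50.1 fragments a library in pericytes and 0 to 15.8 in SMCs. Such numbers take the longest of 4 transcripts and are upper estimates. The groups overlapped. The difference of -0.18 (SE 0.13, 95% interval -0.48 to 0.12) did not pass (limma q = 0.415). With a pseudocount of 0.1 it was -0.78 and did not pass either (q = 0.393). No P5-type ATPase of the 5 tested passed in either direction (against 11.2% and 10.6% of all genes), with 0 at an unadjusted p below 0.05. Atp13a1, the family member of the endoplasmic reticulum, was at 9.44 to 30.8 FPKM over the 8 libraries, Atp13a2, a lysosomal polyamine exporter, at 1.83 to 15.6, and Atp13a3 at 1.92 to 4.39. Atp13a4 stayed at or below 0.573 FPKM.

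**Figure D3:**
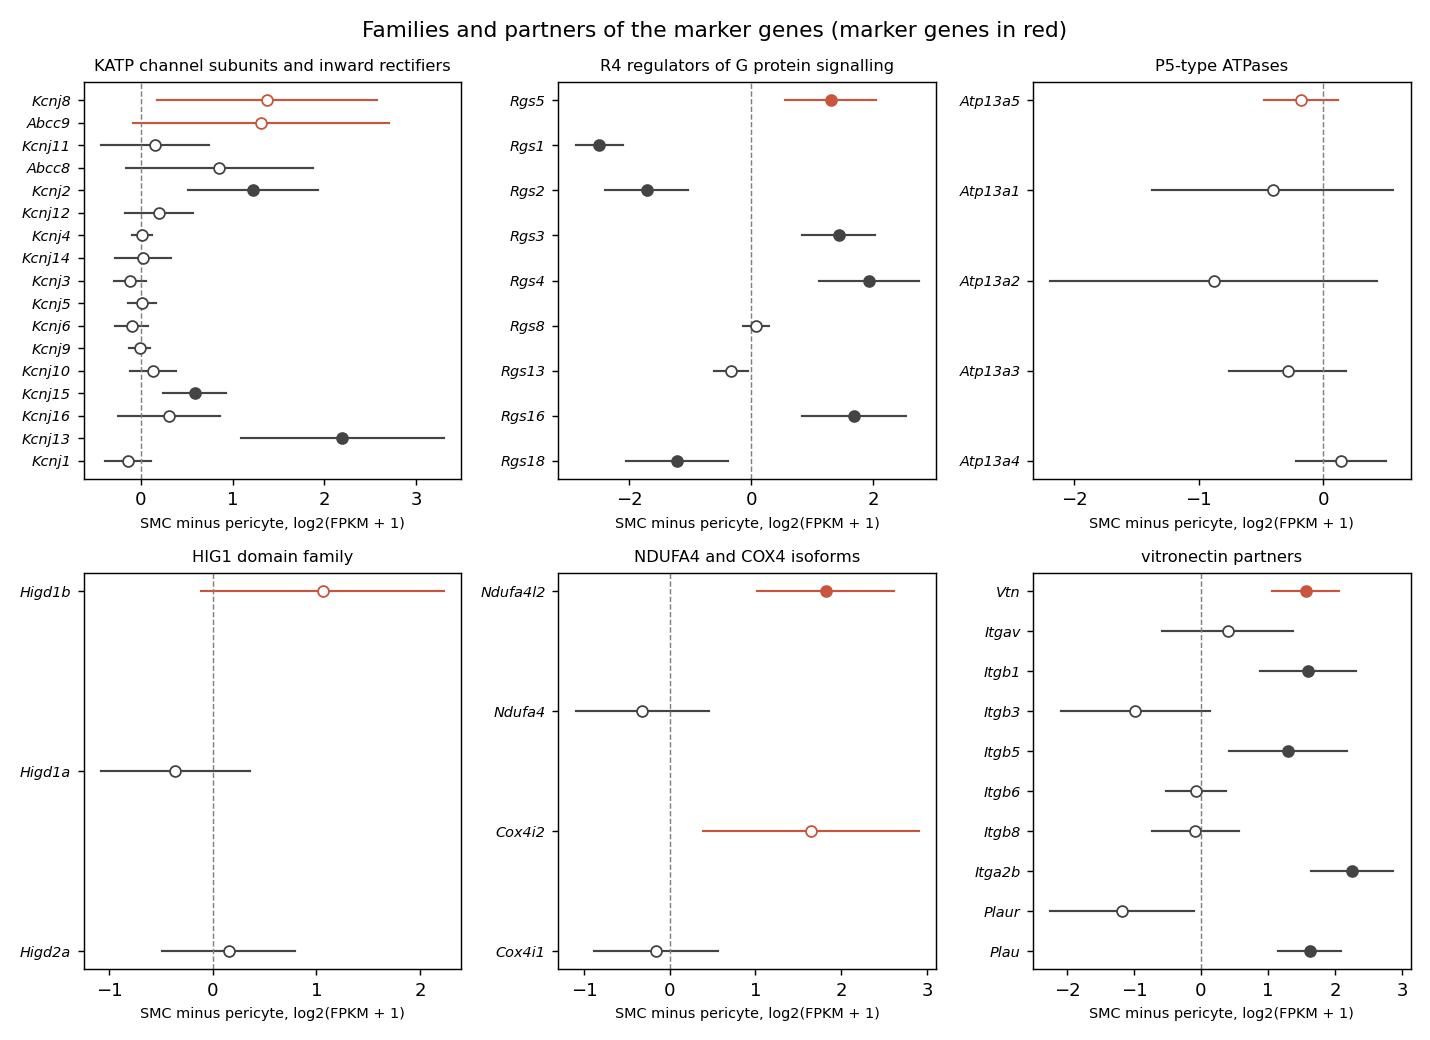
SMC minus pericyte, log2(FPKM + 1), with 95% intervals from limma for the families and partners of the marker genes, which are drawn in red (filled circles have q below 0.05). R4 regulators passed in both directions, 4 higher in SMCs and 3 in pericytes, whereas the P5-type ATPases and the HIG1 genes passed in neither.

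The order of levels was nearly the same in the groups. In pericytes it ran Vtn, Ndufa4l2, Rgs5, Higd1b, Cox4i2, Kcnj8, Abcc9 and Atp13a5, and in SMCs Cox4i2 and Higd1b changed places. The ranges of neighbours in this order overlapped over the 4 libraries of a group with 1 exception in each, between Kcnj8 (4.09 to 13.4 FPKM) and Abcc9 (0.344 to 2.43 FPKM) in pericytes and between Abcc9 (1.62 to 13.3 FPKM) and Atp13a5 (0 to 0.146 FPKM) in SMCs.

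The libraries also differed within a group. SMC 4 was the highest and SMC 3 the next highest SMC library in all 7 genes above 1 FPKM on average, and pericyte 1 was the lowest pericyte library in 5 of them. The share of all genes with these orders was not computed, so they cannot be called particular to the marker genes. The mean of replicates 3 and 4 over that of replicates 1 and 2 was 2.81 in pericytes and 2.76 in SMCs for Kcnj8, and 3.75 and 5.02 for Abcc9. For Vtn, by contrast, it was 0.932 and 1.25, and for Ndufa4l2 0.919 and 1.82. Pdgfrb, the gene of the receptor used in the sort, had ratios of 3.45 and 4.73. The labels give all libraries the same batch, so no batch named by the labels could be set against this split. In 6 of the 8 genes the SMC library was higher in all 4 pairs, which 19% of all genes showed. The median difference of the 7 genes was 1.34, 0.80, 1.91 and 1.63 in pairs 1 to 4.

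Pdgfrb itself was at 5.51, 3.21, 12.5 and 17.6 FPKM in pericytes and at 15.6, 17.4, 65.0 and 91.5 FPKM in SMCs. The difference of 2.02 did not pass (limma q = 0.0973). Dividing each gene by Pdgfrb of the same library, a ratio that no scaling of the libraries changes, gave overlapping groups in all 8 marker genes. The ratio of Kcnj8 was 0.781, 1.28, 0.818 and 0.760 in pericytes and 0.796, 0.670, 0.425 and 0.426 in SMCs, and that of Abcc9 was 0.107 to 0.195 and 0.104 to 0.145. The ratio of Rgs5 was 1.04 to 5.06 in pericytes and 0.641 to 1.85 in SMCs, and that of Vtn 1.69 to 11.0 and 1.05 to 5.13. Pericyte 2, with the lowest Pdgfrb, gave the highest ratio of 7 of the 8 genes, Abcc9 being the exception. Of all genes tested, 22.7% had every pericyte library above every SMC library in this ratio and 0.401% the reverse. Notch3, a receptor of mural cells, was among the former with 0.607 to 1.36 in pericytes and 0.400 to 0.437 in SMCs. The mural and contractile genes Mcam, Cspg4, Anpep, Des, Acta2 and Tagln overlapped between groups in this ratio.

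**Figure D4:**
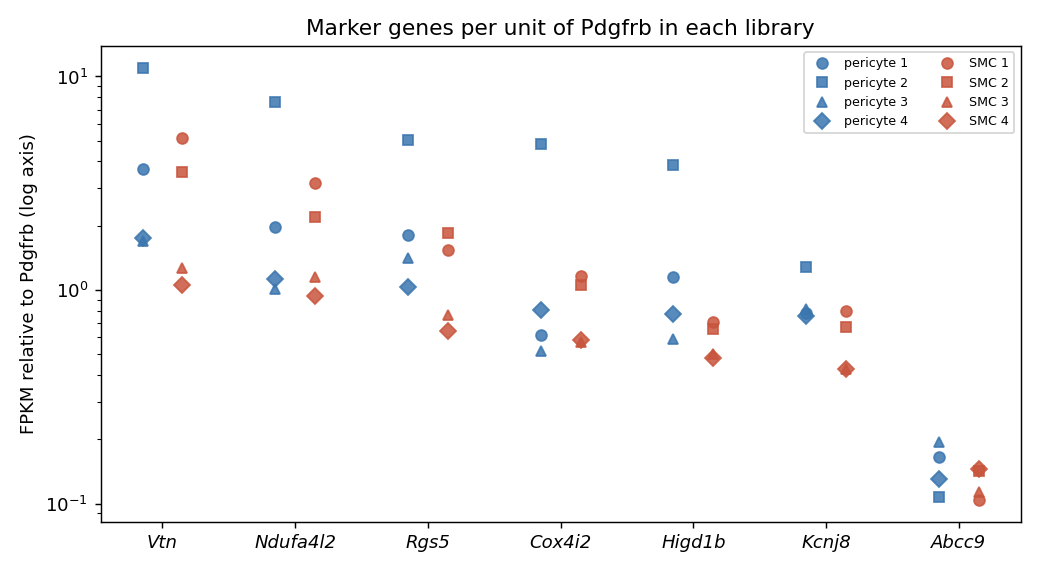
FPKM of 7 marker genes divided by the FPKM of Pdgfrb in the same library, on a log axis, with pericyte and SMC libraries side by side and a symbol for each replicate number. The groups overlap in each gene, and Kcnj8 spans 0.760 to 1.28 in pericytes and 0.425 to 0.796 in SMCs.

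Among other genes known from brain pericytes, more were higher in SMCs than in pericytes as well. Of 25 such genes in the data, 12 were higher in SMCs and 1 in pericytes (against 11.2% and 10.6% of all genes), with a median difference of 1.47. Colec12, a scavenger receptor, was at 4.14 to 13.1 FPKM in pericytes and 77.5 to 125 FPKM in SMCs (difference 3.50, limma q = 3.15e-04), and Enpep, the aminopeptidase that cleaves angiotensin II, was at 2.25 to 3.31 and 8.73 to 14.6 FPKM (1.68, q = 4.05e-04). The gene higher in pericytes was Ggt1, a glutathione-cleaving enzyme, at 6.92 to 13.6 FPKM in pericytes and 0 to 2.71 FPKM in SMCs (-2.56, q = 0.00501). The folate carrier gene Slc19a1 (-0.80, q = 0.0502) joined it without SMC 1 (-0.97, q = 0.0285), and also with the filter at 1 FPKM or with median-ratio scaling. Of 15 genes shared by mural cells, 5 were higher in SMCs (against 11.2% of all genes), among them the endothelin receptor gene Ednra (2.23, q = 0.00242). Mef2c was higher in pericytes (-1.24, q = 0.00246), as were 10.6% of all genes. The mural count was 2 without pericyte 1 or 3, and 3 without pericyte 2 or SMC 3. At an unadjusted p below 0.05 in limma, 10 of the 15 were higher in SMCs, against 16.2% of all genes.

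The label of each group was set against defining markers. The genes of the mural list were all above 0 FPKM in every pericyte library, and their summed level was 183 to 318 FPKM in pericytes and 261 to 783 FPKM in SMCs. Contractile genes of SMCs were present in both groups, with summed levels of 1020 to 3103 and 3124 to 9421 FPKM. Of these 14 genes 1, Casq2, was higher in SMCs (1.59, limma q = 0.0232), against 11.2% of all genes, a call lost without pericyte 1, 2 or 3 or SMC 2 or 3. All 14 differences were positive, with a median of 1.31, or 0.85 without SMC 4. The count was 6 with the filter at 1 FPKM, against 22.8% of all genes, and 5 with TPM, against 13.6%. At an unadjusted p below 0.05, 7 were higher, against 16.2% of all genes. Acta2, the α-actin of smooth muscle, was at 330 to 1258 FPKM in pericytes and 1158 to 3291 FPKM in SMCs (1.43, q = 0.0979). Tagln, whose promoter drove Cre, was at 165 to 551 FPKM in pericytes and 500 to 1569 FPKM in SMCs (1.42, q = 0.110). Myh11, which the authors name as specific to SMCs, was at 7.79 to 109 and 10.2 to 350 FPKM (1.28, q = 0.577). Each of these genes overlapped between groups.

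Markers of other cell types moved with the groups. For comparison with the counts below, 11.2% of all genes were higher in SMCs and 10.6% in pericytes. Of 8 T cell markers 7 were higher in pericyte libraries, with summed levels of 2065 to 3585 FPKM in pericytes and 35.6 to 68.6 FPKM in SMCs, as in Cd8a (difference -4.64, limma q = 2.01e-06) and Cd5 (-5.03, q = 4.51e-06). All 5 B cell markers were too, at 691 to 1853 and 8.99 to 27.8 FPKM, as in Ms4a1 (-5.42, q = 4.39e-05) and Pax5 (-1.41, q = 8.92e-05). T cells, B cells and macrophages carry CD45, and endothelial cells carry CD31, and the sort gate excluded both labels. On the SMC side, 8 of 10 endothelial markers were higher (124 to 225 FPKM in pericytes and 574 to 1611 FPKM in SMCs in sum, 5 of 10 without pericyte 1), as in Egfl7 (2.61, q = 9.82e-04) and Emcn (3.22, q = 0.00103). Pecam1, the gene of CD31, was at 24.96 to 59.7 FPKM in pericytes and 102 to 301 FPKM in SMCs (2.06, q = 0.00873). Of 10 fibroblast markers 9 were higher in SMCs (1105 to 2041 and 4955 to 6396 FPKM), as in Pdgfra (3.60, q = 2.13e-04) and Lum (4.11, q = 2.62e-04). Dcn was listed at 0 in all SMC libraries and at 509 to 1165 FPKM in pericytes. Of 8 macrophage markers 6 were higher in SMCs (81.5 to 196 and 358 to 555 FPKM), as in C1qb (3.03, q = 0.00326) and Mrc1 (2.12, q = 0.00390). For skeletal muscle fibers 1 of 8 markers, Mylpf, was higher in pericytes (-1.01, q = 0.0108), against 10.6% of all genes, while 5 of the 8 had a positive difference. With the filter at 1 FPKM or the covariate, 1 passed as higher in SMCs and 2 in pericytes. The sums were 40.3 to 50.9 and 34.2 to 49.97 FPKM. For Schwann cells 1 of 6, Ngfr, was higher in SMCs (0.85, q = 0.00826), against 11.2% of all genes. A positive difference was seen in 2 of the 6, and with the filter at 1 FPKM 0 passed. The sums were 103 to 657 and 109 to 346 FPKM. The marker genes themselves summed to 56.3 to 113 FPKM in pericytes and 177 to 391 FPKM in SMCs. The part of these other cell types in the differences of the marker genes was not tested.

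**Figure D5:**
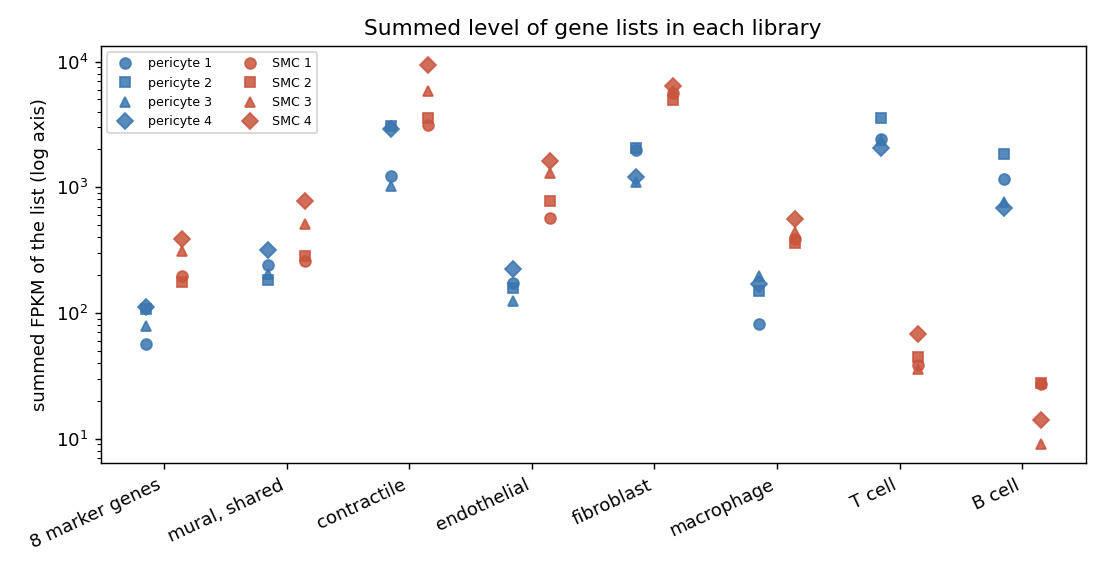
Summed FPKM of the 8 marker genes and of marker lists of other cell types in each library, on a log axis. The marker genes sum to 56.3 to 113 FPKM in pericytes and 177 to 391 FPKM in SMCs, while T and B cell lists are higher in pericytes and endothelial, fibroblast and macrophage lists are higher in SMCs.

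Genes whose profile over the 8 libraries was most like that of a marker gene were listed by the root mean square distance between log2(FPKM + 1) values, each gene centred on its own mean, among 13612 genes of at least 1 FPKM on average. For Kcnj8 they were Igfbp5 (distance 0.15), Socs3 (0.17) and Anpep (0.19), and for Abcc9 Nrp2 (0.18), Afap1l2 (0.19) and Myo10 (0.20). The channel partners ranked 43rd (Abcc9 to Kcnj8) and 38th (Kcnj8 to Abcc9), at a distance of 0.28. For Rgs5 the nearest genes were Rassf9, Sardh and Nfic (0.18 to 0.19), for Ndufa4l2 Cdc42ep2, Mgst3 and Fam181b (0.17 to 0.21), and for Cox4i2 Mustn1, Sncg and Mlf1 (0.22 to 0.25). For Vtn they were 9530026P05Rik, Hist1h2bc and Tspan17 (0.12 to 0.14). Higd1b had the nearest match of any, Speg, a muscle kinase gene, at 0.10, followed by Efnb3 and Pde1b at 0.22. Among the marker genes, Ndufa4l2 ranked 11th for Cox4i2 (0.33) and Vtn 15th for Ndufa4l2 (0.24). The profiles share libraries and their depth, and the distances are descriptions.

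Sequence shared with other genes could split reads, so the transcripts were compared in GENCODE version M1. No 50-base stretch of 7 marker genes was found in another coding gene, and for Abcc9 0.637% of 7693 stretches were. The longest run shared with the nearest paralogue was 28 bases (Ndufa4l2 and Ndufa4), far below the read length of 150 bases.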

How the data were processed

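RNA from sorted pericytes and SMCs (4 samples each) was amplified with a SMART-Seq kit and made into Nextera XT libraries. Reads were checked with FastQC and aligned by Bowtie2 and TopHat to the mouse genome of NCBI Build 37. The authors deposited the result as FPKM for 37979 genes. The program that computed FPKM and any use of strand are not given in the sources used here. FPKM are not counts. Low values of long genes fell on multiples of what 1 fragment is worth (94.9% to 99.0% within 0.15 of a whole number, up to 5 fragments), which gave the approximate depth. It covers counting only.

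The log2(FPKM + 1) of each gene was compared between groups by limma 3.58.1 (lmFit and eBayes, two-sided, no covariate) in R 4.3.3, with Benjamini-Hochberg adjustment over 27414 genes. The other 10565 genes were at 0 in all libraries. In simulated data of 27414 genes with 4 libraries a group, 100 genes were changed by 1 and 100 by 2 on the log2 scale. All were drawn from genes with a mean above 2 on this scale, and no other gene was changed. Of these, 13 and 54 were recovered, with 1 unchanged gene called. In the real data 21.8% of genes passed, which makes the adjusted threshold less strict than in the simulation. The share recovered in the real data was therefore not measured. Positions came from GENCODE version M1, which holds 37195 of the gene identifiers, and promoters from RefSeq (GRCm38.p6).

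The 8 genes and the gene lists were chosen with earlier results of these data known. The text names the 8 genes, their families and partners, the 2 genes of smallest q in each direction from longer lists, and the 3 genes of most similar profile. Acta2, Alb, Apoa1, Cspg4, Des, Fgb, Mcam, Myh11, Notch3, Pdgfrb, Pecam1, Slc19a1 and Tagln were added after their values were seen. Gper1 and Higd1c were not matched, and 2 further genes were left out of the lists. The fit was repeated with 0.1 as pseudocount, with only genes that reached 1 FPKM in 4 or more libraries, with TPM, quantile and median-ratio scaling, with the replicate number as a block, with a covariate that sets replicates 1 and 2 against the rest, and with each library left out. Python 3.11.15 with numpy 2.4.6, pandas 2.3.3 and matplotlib 3.10.9 was used for summaries and figures.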

Additional observations from a re-analysis of the deposited data

How the results depend on the processing

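The 7 marker genes other than Atp13a5 kept a positive difference, SMC minus pericyte, under all 15 alternatives, and Atp13a5 a negative one under each that gave it a value. The filter at 1 FPKM in at least 4 libraries gave Atp13a5 no value. The filter brought Kcnj8 (1.37, limma q = 0.0358) and Cox4i2 (1.64, q = 0.0200) past the threshold, so that 5 marker genes were higher in SMCs in place of 3, while the share of all genes higher in SMCs went from 11.2% to 22.8%. TPM scaling did so for Cox4i2 (1.91, q = 0.0271). With replicates 1 and 2 against 3 and 4 as a covariate, 6 genes passed, and 14.3% of all genes (3929) were higher in SMCs and 13.8% (3794) in pericytes. The 6 included Kcnj8 (1.37, q = 6.09e-04), Abcc9 (1.31, q = 0.0110) and Cox4i2 (1.64, q = 0.0464). No label gives this split, and the levels of Kcnj8 and Abcc9 follow it. No marker gene passed as higher in pericytes under any alternative.

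Same-numbered libraries deviated together with correlations of 0.0794, 0.319, 0.437 and 0.474 in replicates 1 to 4 over 13612 genes, and not every pair was above 0.1. Pericyte 1 correlated best with SMC 2 and pericyte 2 with SMC 1, whereas pericytes 3 and 4 correlated best with their own number, so the samples are treated as sharing only a number. With the replicate block, 5 marker genes passed, including Kcnj8 (1.37, q = 0.00142) and Abcc9 (1.31, q = 0.0436). Over all genes the block gave 3175 (11.6%) higher in SMCs and 2978 (10.9%) in pericytes in place of 3060 and 2917. Kcnj2 (1.22, q = 0.0549) and Mylpf (-1.01, q = 0.0521) no longer passed. Slc19a1 (-0.80) passed as higher in pericytes with the block (q = 0.0156) and with the covariate (q = 0.00576).

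Leaving out each library in turn, the differences ranged from 1.06 to 1.65 for Kcnj8, 0.87 to 1.69 for Abcc9, -0.26 to -0.08 for Atp13a5, 1.11 to 1.52 for Rgs5, 0.71 to 1.34 for Higd1b, 1.64 to 2.02 for Ndufa4l2, 1.27 to 1.91 for Cox4i2 and 1.45 to 1.70 for Vtn. Ndufa4l2 (q from 0.00912 to 0.0294) and Vtn (q from 0.00249 to 0.0100) passed each time, and 2 to 3 marker genes passed in all. Among all genes, 2339 to 3127 were higher in SMCs and 2280 to 3234 in pericytes.

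TPM scaling moved the median difference of genes of at least 1 FPKM on average from -0.05 to 0.16, and gave 3734 genes higher in SMCs and 2117 in pericytes. Mural genes higher in SMCs numbered 8 with the filter, and 10 with the block or with the covariate, in place of 5. Contractile genes numbered 6 with the filter, 5 with TPM, and 3 with quantile normalization, the block or the covariate, in place of 1. The cause of these shifts was not tested.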
